A study of Mus musculus with 12 samples.

Results

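The genes described here are named for the proteins of the cytosolic ribosome, and their RNA was measured in splenic lymphocytes of the mouse on Affymetrix arrays. A gene was taken when its symbol follows the names of these proteins, that is Rpl or Rps with a number and at most 1 further letter (a, x, y or l), or Rplp0, Rplp1 or Rplp2. Only probe sets with 1 gene symbol were used, and of several probe sets of a gene the one with the highest mean over the 12 arrays. This gave 58 of the 19937 genes measured, measured by 186 probe sets in all, 37 genes with more than 1 and 21 with 1. There were 30 proteins of the large subunit, 19 of the small subunit, the 3 stalk proteins and 6 paralogues whose symbol ends in l. RefSeq lists 1 of the 6, Rps4l, as a transcribed pseudogene and the other members as protein-coding. A further 16 symbols of the same naming, among them Rpl11, Rpl13a, Rpl3 and Rps27, were carried only by probe sets of several genes, and no value is given for them.

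A ribosome is built from a small subunit, which reads the mRNA, and a large subunit, which joins the amino acids, and each is a core of ribosomal RNA clad with proteins that are present in 1 copy apart from those of the stalk. The stalk is the arm of the large subunit that recruits the elongation factors. Transcripts of ribosomal proteins belong to the most abundant mRNAs of most cells, and many start with a run of pyrimidines (the 5′ TOP motif) through which mTOR and the RNA-binding protein Larp1 control their translation. A lymphocyte that leaves the resting state makes more ribosomes before it divides, and much of this control acts on translation, which an array of total RNA does not measure. Ribosomal protein genes also have many processed pseudogenes of near-identical sequence, so that a probe set named for a gene may read more than that gene, which was not tested.

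All 12 RNA samples came from C57Bl/6 x FVB mice, with 3 arrays in each labelled group. The labelled activated B cells had been cultured for 4 days with aCD40 and IL4, and the labelled activated T cells for 4 days with aCD3, aCD28 and IL2. The labelled resting B cells (mature, CD43 negative) and the labelled resting T cells were taken from the spleen on day 0. Purified fractions can hold other cells, the labels and the main methods do not give the mice behind the 3 samples of a group, and p-values therefore measure the spread between these samples, which may be technical.

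The lineage genes went against the labels in every group, and the arrays are therefore named by their labels, with every direction being one between labelled groups. The T cell gene Cd3e averaged 10.07 and 10.61 log2 in the labelled activated and resting B arrays, against 6.43 and 5.93 in the labelled activated and resting T arrays. The B cell gene Cd79a averaged 4.50 and 8.27 log2 in the labelled activated and resting B arrays, against 11.64 and 10.45 in the labelled activated and resting T arrays. Mki67, a marker of dividing cells, averaged 10.58 log2 in the labelled activated B and 10.18 in the labelled resting T arrays, against 6.31 in the labelled activated T and 6.56 in the labelled resting B arrays. Array medians over all 34760 probe sets lay between 5.5 and 5.68 log2, and background was set at 5.21 log2, the 95th percentile over 1015 genes for olfactory receptors. RMA, which made the values, brings the probes of all arrays to 1 distribution, so that a change in RNA per cell cannot be seen. A change in the share of a single gene can be seen. A change shared by the ribosomal protein genes may be made smaller by this step, since they held 31 of the 100 highest means. In such bulk RNA, fewer cells of a type and less RNA per cell cannot be told apart.

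The ribosomal protein genes gave some of the strongest signals on the arrays. Their mean over 12 arrays was at least 10 log2 for 40 genes, at least 11 for 32 and at least 12 for 17, and they made up 31 of the 100 genes with the highest means. The highest value on any array was 14.09 log2, and Rpl9, a protein of the large subunit, lay between 13.38 and 13.72 on the 12 arrays. A probe set's level depends on its probes as well as on the mRNA, so the order of the genes by signal is not an order of abundance. Rplp2 (6.67 log2) and Rpl7a (5.82 log2) had dim probe sets although the cell needs their proteins for every ribosome. Of the 58 genes, 55 had a mean above background. The other 3 were the paralogues Rpl3l, Rpl10l and Rpl39l, at 3.99, 4.74 and 3.36 log2, which in mammals are known from muscle (Rpl3l) and testis (Rpl10l and Rpl39l).

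Between the 4 labelled groups most of these genes differed little. The distance between the highest and the lowest group mean was under 0.5 log2 for 49 of the 58 genes and had a median of 0.28, against 0.34 over all genes tested, and it reached 1 log2 for Rps27l alone. The SD within a group had a median over the genes of 0.07, 0.08, 0.07 and 0.12 log2 in the labelled activated B, activated T, resting B and resting T arrays. The median of the genes on an array averaged 11.42 ± 0.05 log2 (SD, n = 3) in the labelled activated B and 11.12 ± 0.11 in the labelled activated T arrays, against 11.37 ± 0.02 in the labelled resting B and 11.38 ± 0.09 in the labelled resting T arrays. Its 3 values in the labelled activated T arrays, 11.24, 11.04 and 11.07, lay below the 9 others, of which the lowest was 11.28. The labelled activated T arrays held the lowest of the 4 group means for 43 genes and the highest for 0. The highest mean fell to the labelled resting B arrays for 27 genes, to the labelled activated B arrays for 25 and to the labelled resting T arrays for 6. No count over all genes is given beside these, so how particular they are to these genes was not tested. Of the 58 genes, 37 passed the test in at least 1 of the 6 comparisons of a pair of groups (limma on all 12 arrays, Benjamini-Hochberg adjustment over 19937 genes, threshold 0.05), and 21 in none. That is 63.8%, against 54.5% of all genes. A mean above background was found for 12164 of the 19937 genes and for 55 of the 58. The shares and medians over all genes, here and below, thus include many genes with little signal.

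**Figure D1:**
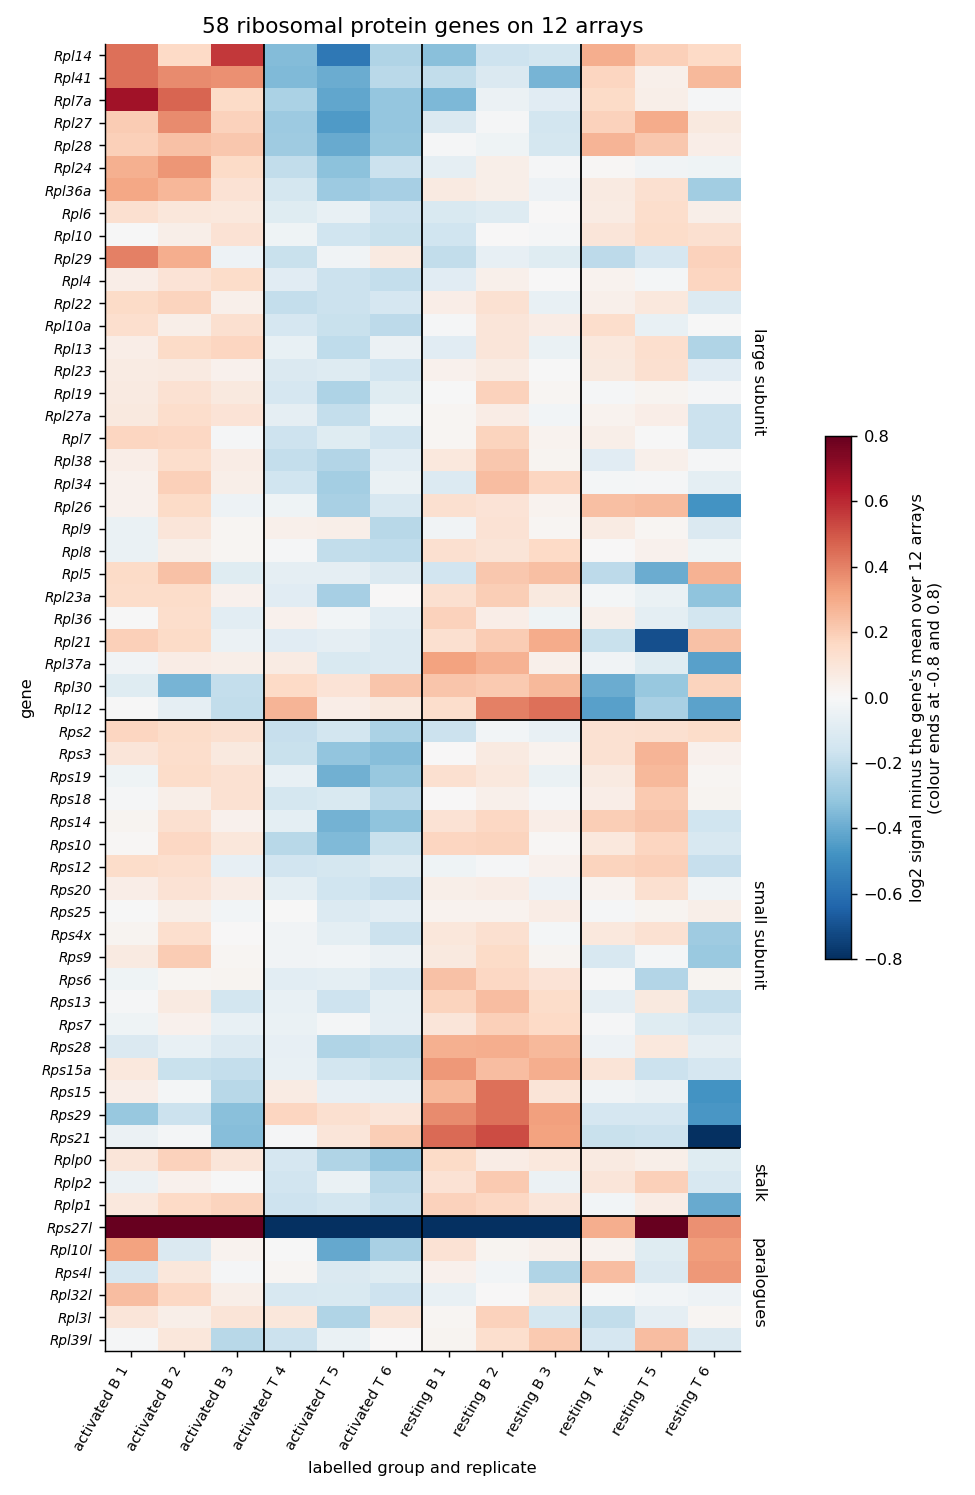
Log2 signal of the 58 ribosomal protein genes (rows) on the 12 arrays (columns, by labelled group and replicate), each as its difference from the gene's own mean over 12 arrays, with the scale ending at -0.8 and 0.8 log2. Most rows are pale, the labelled activated T columns hold the lowest group mean in 43 rows, and Rps27l, Rpl14, Rpl41 and Rpl7a are red in the labelled activated B columns.

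In the arrays labelled activated B, 9 ribosomal protein genes were higher than in those labelled resting B and 6 were lower, and their median difference was 0.02 log2, against -0.02 over all genes. Over all genes 19.7% were higher and 16.7% lower in this comparison, so that the share of ribosomal protein genes called higher (9 of 58) was no larger than the background. The arrays of both groups did not overlap for 25 of the 58, against 46.6% of all genes. Of the 30 large subunit genes 7 were higher and 2 lower, of the 19 small subunit genes 1 was higher and 4 lower, no stalk gene passed the test, and of the 6 paralogues Rps27l was higher. The split depended on the scaling. It was 12 higher and 6 lower with each array centred on its own median, and 6 higher and 10 lower (37.5% of calls higher) with quantile normalization, under which the median turned to -0.08. Without labelled activated B replicate 2, or without labelled resting B replicate 3, 5 genes were higher.

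Rps27l, a paralogue of Rps27 known in human cells as a target of p53, differed most. It lay at 9.10, 9.08 and 8.96 log2 in the labelled activated B arrays, against 6.46, 6.46 and 6.58 in the labelled resting B arrays. It was 5.82-fold higher in the labelled activated B arrays (log2 difference 2.54, standard error 0.12, adjusted p = 4.18e-11 from limma). In the labelled activated T arrays it lay at 6.28, 6.31 and 6.26 log2, against 7.73, 8.27 and 7.81 in the labelled resting T arrays. It fell by 1.65 on the log2 scale (standard error 0.12, adjusted p = 9.1e-09 from limma). The gene thus ran high in the labelled activated B and in the labelled resting T arrays, without overlap with the other groups, and it was the only one of the 58 with a difference of at least 2-fold in any comparison of a pair of groups. Its parent gene Rps27 has no value here, and Mdm2, the p53 inhibitor that human RPS27L binds, was 0.44 log2 higher in the labelled activated B than in the labelled resting B arrays (adjusted p = 0.0018 from limma). Whether p53 acts on either gene in these cells was not tested.

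Of the proteins built into every ribosome, Rpl14, Rpl41 and Rpl7a showed the largest positive differences. Rpl14, a protein of the solvent side of the large subunit, lay at 8.73, 8.45 and 8.85 log2 in the labelled activated B arrays, against 7.95, 8.12 and 8.14 in the labelled resting B arrays, a difference of 0.60 (standard error 0.12, adjusted p = 0.000429 from limma). Rpl41, the smallest protein of the large subunit, lay at 11.40, 11.33 and 11.32 log2 in the labelled activated B arrays, against 10.76, 10.84 and 10.58 in the labelled resting B arrays, a difference of 0.62 (standard error 0.10, limma's adjusted p = 5.8e-05). The arrays of both groups were apart for both genes, and each was about as strongly lower in the labelled activated T arrays. There Rpl14 lay at 7.94, 7.72 and 8.05 log2, against 8.58, 8.48 and 8.45 in the labelled resting T arrays, and fell by 0.60 (adjusted p = 0.000492 from limma). Rpl41 lay at 10.60, 10.56 and 10.74 log2 in the labelled activated T arrays, against 11.13, 10.99 and 11.21 in the labelled resting T arrays, and fell by 0.48 (adjusted p = 0.000786 from limma). Rpl7a, which binds ribosomal RNA in the large subunit, was near background, at 6.25 ± 0.26 log2 in the labelled activated B and 5.66 ± 0.17 in the labelled resting B arrays (SD, n = 3 each), and its difference of 0.59 lost the call with its dimmest probe set (0.33, adjusted p = 0.0632 from limma).

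Rpl27, Rpl28, Rps2 and Rpl24 were also higher in the labelled activated B arrays, by 0.35, 0.28, 0.24 and 0.27 log2, at limma's adjusted p-values of 0.00749, 0.0207, 0.0319 and 0.0219. Rps2, a small subunit protein beside the channel through which the mRNA enters, lay at 12.68, 12.66 and 12.64 log2 in the labelled activated B arrays, against 12.33, 12.48 and 12.45 in the labelled resting B arrays, so that a difference of this size was seen at a very high signal with replicates this close. All 3 probe sets of Rpl24, of Rpl27 and of Rps2 were called higher. Rpl27 lost the call with quantile normalization, at 0.17. The ninth gene, Rpl29, at 7.20 ± 0.23 log2 in the labelled activated B arrays, against 6.86 ± 0.07 in the labelled resting B arrays (SD, n = 3 each), passed with an adjusted p of 0.0447 from limma.

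The 6 genes that were lower in the labelled activated B arrays were Rps29, Rps21, Rpl30, Rpl12, Rps15a and Rps28, with log2 differences of -0.65, -0.56, -0.45, -0.42, -0.39 and -0.37. Rps29, a small zinc-binding protein of the small subunit, lay at 12.37, 12.50 and 12.34 log2 in the labelled activated B arrays, against 13.05, 13.12 and 13.00 in the labelled resting B arrays (standard error 0.10, adjusted p = 5.02e-05 from limma). The groups were apart, and all 4 probe sets of Rps29 were called lower, by 0.65 to 0.87. Rps21, a small subunit protein, lay at 10.51, 10.54 and 10.21 log2 in the labelled activated B arrays, against 10.87 to 11.07 in the labelled resting B arrays (adjusted p = 0.00647 from limma), and its dimmer probe set gave -0.37 without passing (adjusted p = 0.0822). Rpl12, a protein at the base of the stalk, lay at 7.98, 7.91 and 7.78 log2 in the labelled activated B arrays, against 8.12, 8.39 and 8.42 in the labelled resting B arrays (adjusted p = 0.00396 from limma). Rpl30, an RNA-binding protein of the large subunit, lost the call without labelled activated B replicate 2 (adjusted p = 0.0533).

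In the arrays labelled activated T, 14 ribosomal protein genes were lower and 3 were higher than in those labelled resting T, and the median difference was -0.15 log2, against 0.02 over all genes. Over all genes 17.8% were lower and 15.9% higher, and groups were apart for 42.3% of them, against 25 of the 58 ribosomal protein genes. The genes that fell held 6 of the large subunit, 6 of the small subunit, the stalk protein Rplp0 and Rps27l. Besides Rps27l, Rpl14, Rpl41 and Rpl7a they were Rpl27, Rpl28, Rps3, Rps19, Rps14, Rps2, Rps10, Rps18, Rpl10 and Rplp0, with log2 differences between -0.54 for Rpl27 and -0.24 for Rplp0. With each array centred on its own median 27 were lower and 1 higher (3.57% of calls higher), while the median of all genes also moved, to -0.09 log2. With all arrays centred on the ribosomal protein genes themselves 6 were lower and 4 higher. Leaving out labelled activated T replicate 5 gave 7 lower genes, and leaving out labelled resting T replicate 4 gave 9. The counts of 14 and 3 come from a fit without pairs, and with the replicate number as a block 10 were lower and 4 higher.

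Rpl28, a large subunit protein, lay at 11.51, 11.39 and 11.49 log2 in the labelled activated T arrays, against 12.06, 12.01 and 11.85 in the labelled resting T arrays, and fell by 0.51 (standard error 0.09, adjusted p = 0.000187 from limma). Of its 3 probe sets 2 passed, and the dimmest gave -0.04. Rpl27 lay at 10.10, 9.95 and 10.09 log2 in the labelled activated T arrays, against 10.58, 10.69 and 10.47 in the labelled resting T arrays (adjusted p = 0.00023 from limma). Rps3, a protein of the mRNA entry site that in human cells also works outside the ribosome in DNA repair and with NF-κB, lay at 11.11, 10.98 and 10.95 log2 in the labelled activated T arrays, against 11.41, 11.56 and 11.32 in the labelled resting T arrays, and fell by 0.42 (standard error 0.09, adjusted p = 0.00127 from limma). For these 3 genes the arrays of both groups did not overlap.

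Rps19, whose loss causes Diamond-Blackfan anaemia in human patients, fell by 0.36 (adjusted p = 0.013 from limma). Rpl10, which joins the large subunit late in its assembly, and Rplp0, the stalk protein that anchors the other two, fell by 0.25 and 0.24 (adjusted p = 0.0363 and 0.0474 from limma). With the replicate number as a block, Rpl10, Rplp0 and Rps18 lost the call, at limma's adjusted p-values of 0.0660, 0.0753 and 0.0576. After removal of the group means, labelled T arrays of the same number correlated at 0.16 to 0.23. The dimmest probe set of Rpl10 gave a difference of 0.54 in the other direction (adjusted p = 0.0522), while 3 of its 5 probe sets were called lower.

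The 3 genes that rose in the labelled activated T arrays, Rpl12, Rps21 and Rps29, were among those lower in the labelled activated B arrays. Rpl12 lay at 8.25, 8.04 and 8.06 log2 in the labelled activated T arrays, against 7.55, 7.72 and 7.55 in the labelled resting T arrays, a difference of 0.51 (standard error 0.10, limma's adjusted p = 0.000967). Rps29 lay at 12.85, 12.81 and 12.77 log2 in the labelled activated T arrays, against 12.54, 12.54 and 12.21 in the labelled resting T arrays, a difference of 0.38 (adjusted p = 0.00681 from limma). Of its 4 probe sets 2 were called higher. It lost the call with each array centred on its median (0.27, limma's adjusted p = 0.0613), with the mean of its probe sets (0.28, 0.0765) and with the dimmest (0.20, 0.242). Rps21 lay at 10.54, 10.65 and 10.75 log2 in the labelled activated T arrays, against 10.37, 10.38 and 9.72 in the labelled resting T arrays, a difference of 0.49 (adjusted p = 0.017 from limma). Labelled resting T replicate 6 stood below the other 2 of its group for both genes, and without it Rps21 did not pass (adjusted p = 0.0903). Rps21 also lost the call without labelled activated T replicate 6 and with each array centred on its median (limma's adjusted p = 0.0647 and 0.0641).

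**Figure D2:**
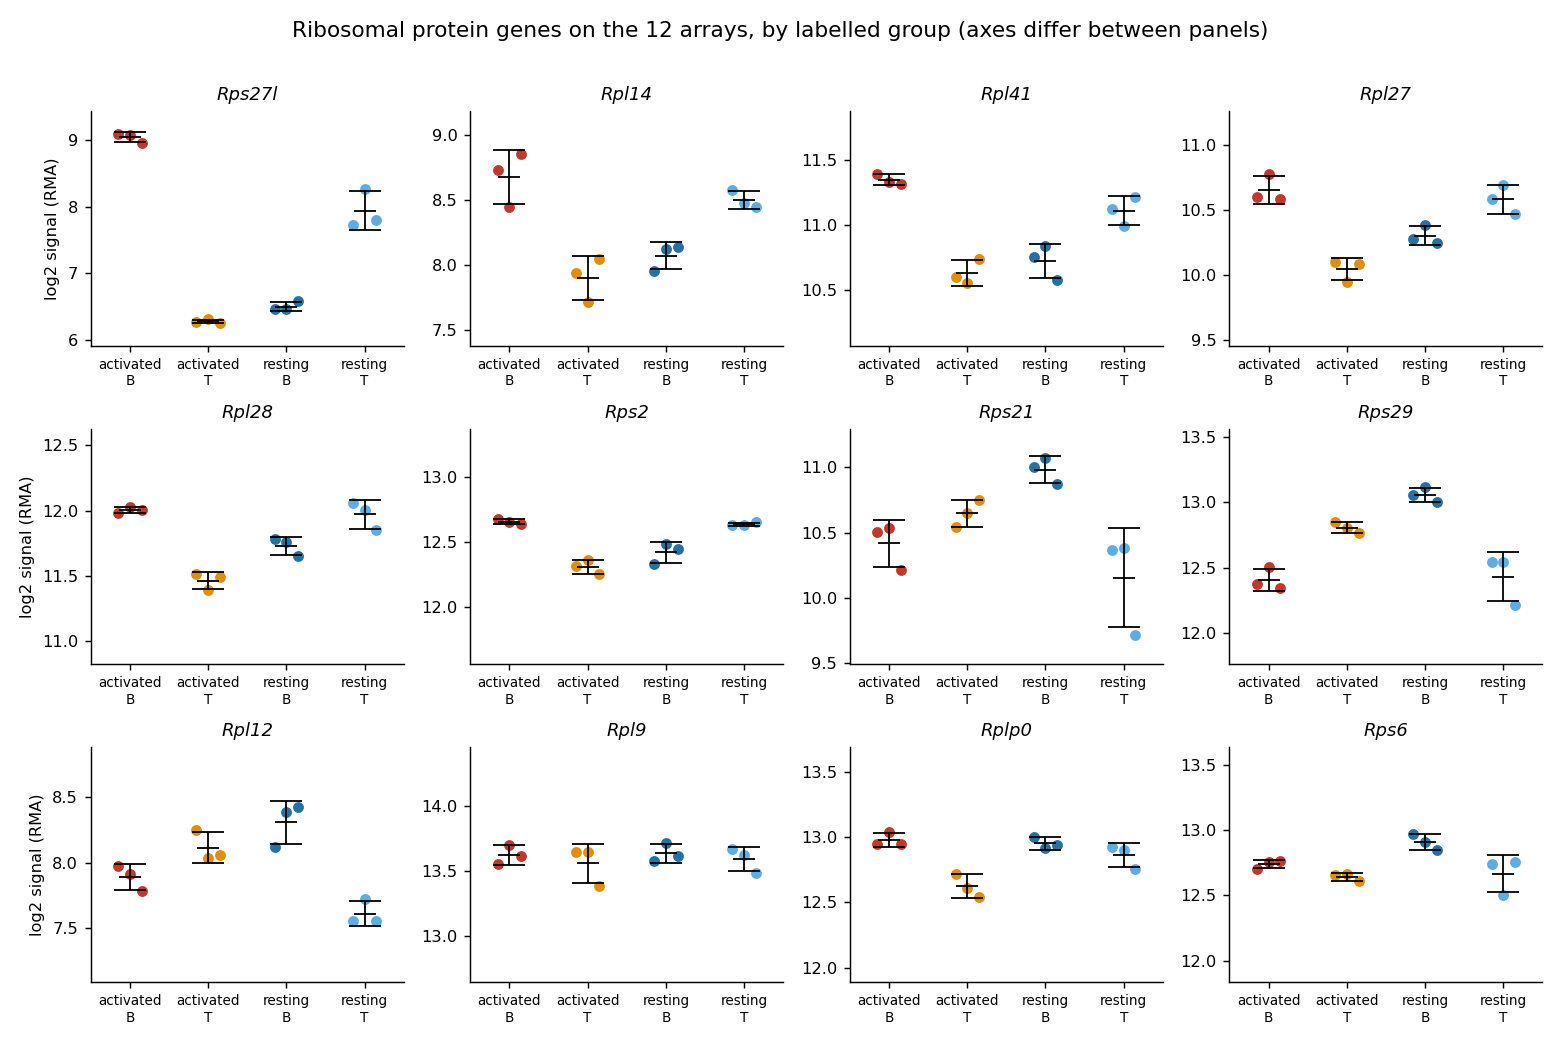
Log2 signal of 12 ribosomal protein genes on each array (points) in the labelled activated B, activated T, resting B and resting T groups, with the mean and SD of 3 arrays in black. Rps27l, Rpl14, Rpl41, Rpl27, Rpl28 and Rps2 have higher means in the labelled activated B and resting T arrays, Rps21, Rps29 and Rpl12 in the labelled resting B and activated T arrays, and Rpl9 lies near 13.6 in all 4 groups.

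The interaction was tested next, which is the difference between labelled activated and resting B minus the same in the labelled T cells. Markers of dividing cells were higher in the first difference and lower in the second (medians 4.12 and -4.05 log2). The interaction therefore cannot tell labelled cell type and division apart. It was positive for 14 ribosomal protein genes and negative for 5, with a median of 0.17 log2, against 21.9% positive and 20.9% negative and a median of -0.03 over all genes. The 14 were Rps27l, Rpl14, Rpl41, Rpl7a, Rpl27, Rpl28, Rps2, Rps3, Rpl24, Rpl36a, Rps19, Rpl6, Rpl10 and Rpl4, and the 5 were Rps21, Rps29, Rpl12, Rpl30 and Rps15. Large subunit genes made up 10 of the 14 and 2 of the 5, small subunit genes 3 of each, and no stalk gene passed. With quantile normalization 13 were positive and 15 negative (46.4% of calls positive), and with array medians centred 31 and 4 (88.6%). The latter also moved the median of all genes, to 0.18 log2.

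Rps27l had an interaction of 4.20 log2 (standard error 0.17, adjusted p = 2.98e-12 from limma), followed by Rpl14 with 1.20, Rpl41 with 1.10, Rpl7a with 0.99 and Rpl27 with 0.88. At the other end stood Rps21 with -1.06, Rps29 with -1.03, Rpl12 with -0.93, Rpl30 with -0.79 and Rps15 with -0.49. All 4 probe sets of Rps29, both of Rps21 and all 3 of Rpl24, Rpl27, Rpl6, Rpl7a and Rps2 passed in the direction of the gene. Rps15, a small subunit protein needed late in assembly, passed narrowly (adjusted p = 0.0381 from limma), and lost the call with array medians centred, with the mean of its probe sets and when any 1 of 7 arrays was left out. Rps19 and Rpl10 lost the call of the interaction with the replicate block.

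Of the 58 genes, 7 were called higher in the labelled activated B and lower in the labelled activated T arrays, 3 were called the other way round, and 0 were called in the same direction in both. Over all genes these shares were 12.9%, 9.89% and 1.75%, against 12.1% and 5.17% of the ribosomal protein genes for both opposite patterns. The sign of the difference was opposite for 67.2% of the ribosomal protein genes and for 69.7% of all genes. The differences in both labelled cell types, which come from separate arrays, ran against each other across the genes (Pearson's r = -0.88, Spearman's rho = -0.68 over 58 genes; r = -0.79 over the 52 without paralogues). The same held over all 19937 genes, with r = -0.68 and rho = -0.61. These correlations are across genes, which are not independent replicates, and they are given as a description.

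**Figure D3:**
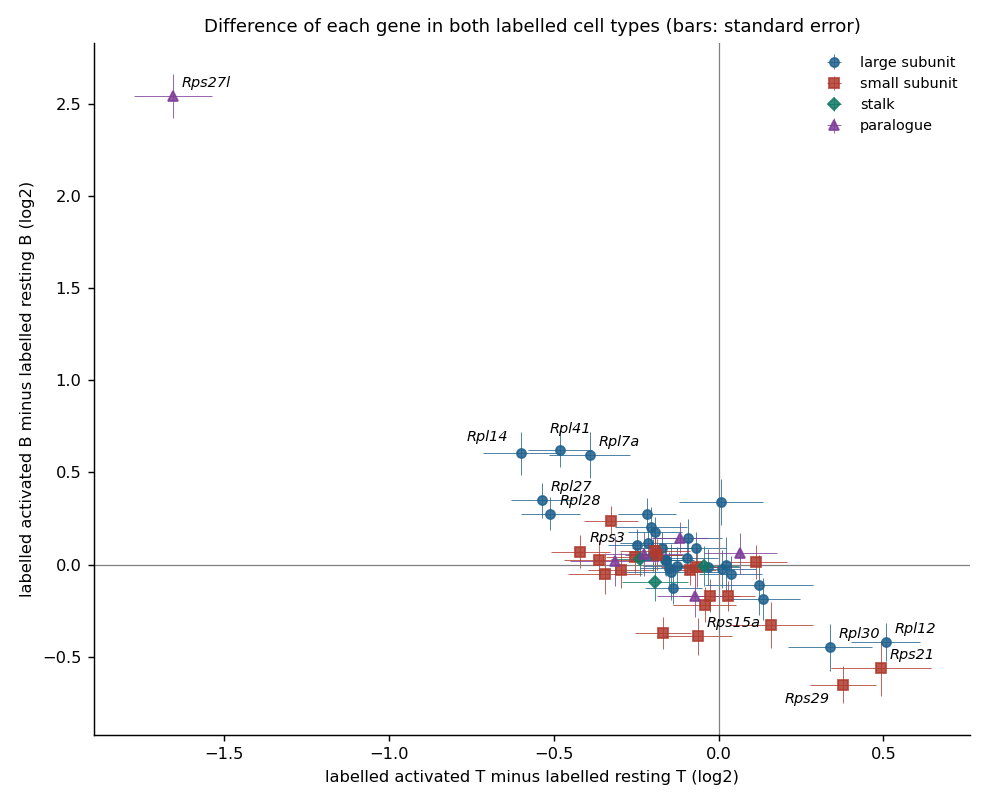
Log2 difference of each of the 58 genes between labelled activated and resting T arrays (horizontal axis) and between labelled activated and resting B arrays (vertical axis), with standard errors. Rps27l (-1.65, 2.54) stands apart at the upper left, Rpl14, Rpl41, Rpl7a, Rpl27 and Rpl28 lie on the same side, and Rpl12, Rps21, Rps29 and Rpl30 lie at the lower right.

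Markers of lineage, of division and of other cells differed between the labelled groups too. All 4 measured markers of dividing cells were higher in the labelled activated B arrays and lower in the labelled activated T arrays than in their resting counterparts, with medians of 4.12 and -4.05 log2. Their summed signal ranged from 12.28 to 12.32 log2 in the labelled activated B and from 7.53 to 8.28 in the labelled activated T arrays, against 7.82 to 8.49 in the labelled resting B and 11.83 to 11.92 in the labelled resting T arrays. All 5 measured B cell markers moved the other way, with sums of 7.58 to 8.14 log2 in the labelled activated B and 13.77 to 13.98 in the labelled activated T arrays, against 10.06 to 11.34 in the labelled resting B and 12.54 to 12.82 in the labelled resting T arrays. The 6 T cell markers summed to 12.80 to 12.96 and 8.36 to 9.47 log2 in the labelled activated B and activated T arrays, against 13.36 to 13.53 and 7.62 to 8.36 in the labelled resting B and resting T arrays. The 7 myeloid markers summed to 7.76 to 7.96 and 9.75 to 10.17 log2 in the labelled activated B and activated T arrays, against 9.87 to 10.50 and 9.21 to 9.61 in the labelled resting B and resting T arrays. The 3 markers of natural killer cells summed to 7.67 to 8.02 and 7.02 to 8.64 log2 in the labelled activated B and activated T arrays, against 9.43 to 10.19 and 5.99 to 6.69 in the labelled resting B and resting T arrays. Of the myeloid list 5 genes and of the natural killer list 3 were lower in the labelled activated B arrays, Lyz2 and Mpeg1 lay below background there at 4.38 and 3.42 log2, and the 2 measured erythroid markers summed to at most 7.01 log2 on any array. The part of lineage, of division and of other cells in the differences of the ribosomal protein genes was not tested.

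Between the groups labelled resting, 11 ribosomal protein genes were higher in the labelled resting B than in the labelled resting T arrays and 5 were lower, against 16.1% and 19.0% of all genes, and the arrays were apart for 24 of 58, against 42.6%. The 11 were Rps21, Rpl12, Rps29, Rps15, Rpl30, Rpl37a, Rps15a, Rps28, Rps13, Rps6 and Rps7, of which 8 belong to the small subunit, and the 5 were Rps27l, Rpl14, Rpl41, Rpl27 and Rpl28. Rps21 was 1.78-fold and Rpl12 1.63-fold higher in the labelled resting B arrays (log2 differences 0.83 and 0.70, adjusted p = 0.000274 and 3.78e-05 from limma). Rps6, the target of the S6 kinases, lay at 12.97, 12.91 and 12.85 log2 in the labelled resting B arrays, against 12.74, 12.50 and 12.76 in the labelled resting T arrays, and passed only narrowly (0.24, adjusted p = 0.0474 from limma). Its dimmest probe set gave -0.42, and the mean of its probe sets 0.0004. Rps6 also lost the call with arrays centred on their median or 75th percentile, with quantile normalization and with array weights. The same happened when most single arrays were left out. With array medians centred 6 were higher and 8 lower (42.9% of calls higher), and the median turned to -0.03, against 0.05 otherwise. Without labelled resting B replicate 2 or replicate 3, 7 were higher, and without labelled resting B replicate 3 or labelled resting T replicate 4, 3 were lower.

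Between the groups labelled activated, 22 ribosomal protein genes were higher in the labelled activated B than in the labelled activated T arrays and 2 were lower, against 21.8% and 18.9% of all genes. The arrays of both groups were apart for 41 of the 58, against 51.1% of all genes. The mean was higher in the labelled activated B arrays for 53 of the 58, against 9024 of all 19937 genes. The median difference was 0.21 log2, against -0.03 over all genes. After Rps27l (6.79-fold) the largest were Rpl14, Rpl7a, Rpl41 and Rpl27, with 0.77, 0.76, 0.72 and 0.61 log2. The other 17 differed by 0.25 to 0.54 log2, such as Rplp0 (12.95, 13.04 and 12.95 log2 in the labelled activated B, against 12.72, 12.61 and 12.54 in the labelled activated T arrays, adjusted p = 0.00333 from limma) and Rplp1, at 13.16 ± 0.05 log2 in the labelled activated B and 12.85 ± 0.02 in the labelled activated T arrays (SD, n = 3 each, adjusted p = 0.0295 from limma). Rplp1 lost the call when any 1 of 5 of the 6 arrays was left out (adjusted p = 0.0583 to 0.0872) and with centring on the ribosomal protein genes (0.471). Rpl22, which developing T cells of the mouse need, averaged 8.58 ± 0.07 log2 in the labelled activated B and 8.29 ± 0.03 in the labelled activated T arrays (SD, n = 3 each, adjusted p = 0.0155 from limma). Rps29 and Rpl30 were the 2 lower genes, with differences of -0.40 and -0.38 log2. The split was 37 higher and 0 lower with array medians centred, 34 and 2 with the mean of each gene's probe sets, 12 and 4 with quantile normalization, and 7 and 4 with all arrays centred on the ribosomal protein genes themselves. Centring the array medians also moved the median of all genes, to 0.10 log2. Without labelled activated T replicate 5, 14 were higher, and without labelled activated B replicate 2 or labelled activated T replicate 6, 1 was lower.

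The remaining pairs of groups cross both labels. In the labelled activated T arrays 0 ribosomal protein genes were higher and 10 were lower than in the labelled resting B arrays, against 8.82% and 9.68% of all genes, and the arrays were apart for 41 of the 58, against 31.3% of all genes, with all 41 lower in the labelled activated T arrays. The mean was lower there for 56 of the 58, and the median difference was -0.22 log2, against 0.01 over all genes. Over all 19937 genes the mean was higher there for 10481. The 10 were Rps28, Rps15a, Rps10, Rps14, Rplp0, Rps3, Rps13, Rpl38, Rpl8 and Rpl28, from Rps28, at 10.38, 10.20 and 10.22 log2 in the labelled activated T arrays, against 10.73, 10.73 and 10.71 in the labelled resting B arrays (-0.46, adjusted p = 0.000823 from limma), to Rpl28 with -0.27. All 5 probe sets of Rps28 passed. The count was 3 without labelled activated T replicate 5 or labelled resting B replicate 2, 4 without labelled activated T replicate 6, and 6 without labelled resting B replicate 1. It was 16 over genes above background alone or with the mean of each gene's probe sets, 18 with array weights, 20 with an intensity trend and robust settings, and 0 with all arrays centred on the ribosomal protein genes. In the labelled activated B arrays 3 genes (Rps27l, Rpl7a and Rpl24) were higher and 0 lower than in the labelled resting T arrays, against 13.0% and 9.93% of all genes, with the arrays apart for 15 of the 58, against 35.2%. Rps27l was 2.16-fold higher there (adjusted p = 1.7e-06 from limma). The 3 became 9 with an intensity trend and robust settings, 7 with the mean or with the dimmest of each gene's probe sets and 5 over genes above background alone. It became 1 without labelled activated B replicate 1 or 2, without labelled resting T replicate 4, with a fit on the compared arrays alone and with centring on the ribosomal protein genes. These comparisons share arrays with those above.

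Promoters were set beside these differences, since the 5′ TOP motif lies at the start of the transcript. Sequences of 300 bases around the annotated start came from RefSeq (GRCm38.p6), and 46 of the 58 genes had one. The 30 bases shown are the 10 before the annotated start and the 20 from it on, 5′ to 3′ on the strand of the gene, with the longest run of C and T in capitals. They are given for genes that were higher in the labelled activated B arrays (Rpl14, Rpl41, Rpl7a, Rpl27, Rpl28, Rps2 and Rps27l), for genes that were lower there (Rps21 and Rpl12) and for a gene that did not pass there (Rps6). Rpl14 lies at chr9:120571507-120571536 (plus strand), Rpl41 at chr10:128549149-128549178 (minus strand), Rpl7a at chr2:26910797-26910826 (plus strand), Rpl27 at chr11:101442235-101442264 (plus strand) and Rpl28 at chr7:4792955-4792984 (plus strand). Rps2 lies at chr17:24720053-24720082 (plus strand), the first of 2 starts of Rps27l at chr9:66946076-66946105 (plus strand), the first of 2 starts of Rps21 at chr2:180257369-180257398 (plus strand), Rpl12 at chr2:32961702-32961731 (plus strand) and Rps6 at chr4:86857348-86857377 (minus strand).
Rpl14: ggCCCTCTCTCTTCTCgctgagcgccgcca
Rpl41: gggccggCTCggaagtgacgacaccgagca
Rpl7a: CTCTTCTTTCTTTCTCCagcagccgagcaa
Rpl27: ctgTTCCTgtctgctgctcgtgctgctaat
Rpl28: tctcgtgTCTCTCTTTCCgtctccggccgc
Rps2: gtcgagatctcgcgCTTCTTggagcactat
Rps27l: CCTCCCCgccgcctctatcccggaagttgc
Rps21: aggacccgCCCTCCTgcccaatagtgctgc
Rpl12: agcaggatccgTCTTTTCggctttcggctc
Rps6: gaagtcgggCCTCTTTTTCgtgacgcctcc

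A run of at least 8 C or T in these 30 bases was found for 15 of the 46 genes (32.6%), against 13.0% of the 27025 genes of the promoter table. Rpl14, Rpl7a and Rpl28 held runs of 14, 17 and 11 and Rps6 one of 10, while Rpl41, Rpl27 and Rps2 held runs of 3, 5 and 6 and Rps27l one of 7. Of the 14 genes with a positive interaction 3 had such a run, of the 3 with a promoter and a negative interaction 0, and of the 29 others 12. Rpl14, Rpl41 and Rpl7a, which moved by about the same amount, thus differed in this feature. In the whole 300 bases and on either strand, CCGGAAG (a core of ETS factor sites) was found for 17 of the 46 (37.0%), against 9.93% of all genes, CTCGCGAG for 7 (15.2%, against 1.04%), CACGTG (the E-box of Myc) for 5 (10.9%, against 8.09%), AAGATGGC for 2 (4.35%, against 3.19%) and TATAAA for 6 (13.0%, against 15.7%). The letters of these motifs do not contain each other. CCGGAAG was held by 4 of the 14 genes with a positive interaction, among them Rps27l, Rpl41 and Rps2, and by 1 of the 3 with a negative one (Rps21). A match is a description of the letters only, and the annotated start may lie off the start used in these cells.

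The genes that build and serve the ribosome, taken from lists, were compared between the labelled activated and resting groups of each cell type. In these comparisons assembly, initiation, elongation and mitochondrial ribosome genes had larger median differences than the ribosomal proteins, whereas in labelled activated T against resting B their medians (-0.12, -0.12, -0.16 and -0.09 log2) were smaller in size than that of the ribosomal proteins (-0.22). Of 53 ribosome assembly factors and RNA polymerase I genes, 42 were higher in the labelled activated B than in the labelled resting B arrays and 1 was lower, with a median of 0.64 log2, against 0.02 for the ribosomal proteins. In the labelled activated T arrays 43 were lower and 1 higher than in the labelled resting T arrays, with a median of -0.58. Npm1, a nucleolar chaperone of assembly, averaged 11.05 log2 in the labelled activated B and 9.78 in the labelled activated T arrays, against 10.12 in the labelled resting B and 10.85 in the labelled resting T arrays. Ncl, another abundant nucleolar protein, differed by 0.69 and -0.94 log2 in the same comparisons. Of 32 initiation factors 23 were higher and 1 lower in the labelled activated B arrays (median 0.62), and 27 were lower and 3 higher in the labelled activated T arrays (median -0.58). The 77 proteins of the mitochondrial ribosome, which is a separate machine encoded by other genes, were 67 higher and 1 lower in the labelled activated B arrays (median 0.66), and 62 lower and 1 higher in the labelled activated T arrays (median -0.51). Their group means differed by a median of 0.79 log2 per gene, against 0.28 for the cytosolic ribosomal proteins.

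Of 13 elongation and termination factors 7 were higher and 1 lower in the labelled activated B arrays, and 8 were lower and 1 higher in the labelled activated T arrays. Eif5a, which helps the ribosome past difficult stretches of protein, differed by 1.65 and -1.60 log2. The very abundant Eef1a1, which brings the tRNAs, averaged 13.85 log2 in the labelled activated B and 13.65 in the labelled activated T arrays, against 13.81 in the labelled resting B and 13.86 in the labelled resting T arrays, and passed in neither comparison (adjusted p = 0.788 and 0.0802 from limma). Tpt1, like the ribosomal proteins a TOP mRNA, was lower in the labelled activated B (-0.29 log2) and higher (0.33) in the labelled activated T arrays. Of 19 genes of mTOR and TOP control 6 were higher and 3 lower in the labelled activated B arrays, and 4 were higher and 3 lower in the labelled activated T arrays. Larp1 differed by 0.67 and -0.68 log2, Eif4ebp1, an inhibitor of cap-dependent translation, by 1.54 and -1.02, Myc, which drives ribosome genes, by 1.25 and -0.99, and Pdcd4, an inhibitor of initiation, by -1.47 and 1.81. Of the 4 measured ribosomal proteins named otherwise, Rpl7l1, a paralogue of Rpl7, was higher in the labelled activated B arrays (0.62), Rpsa was lower in the labelled activated T arrays (-0.27), and Fau and Rps3a1 passed in neither comparison.

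**Figure D4:**
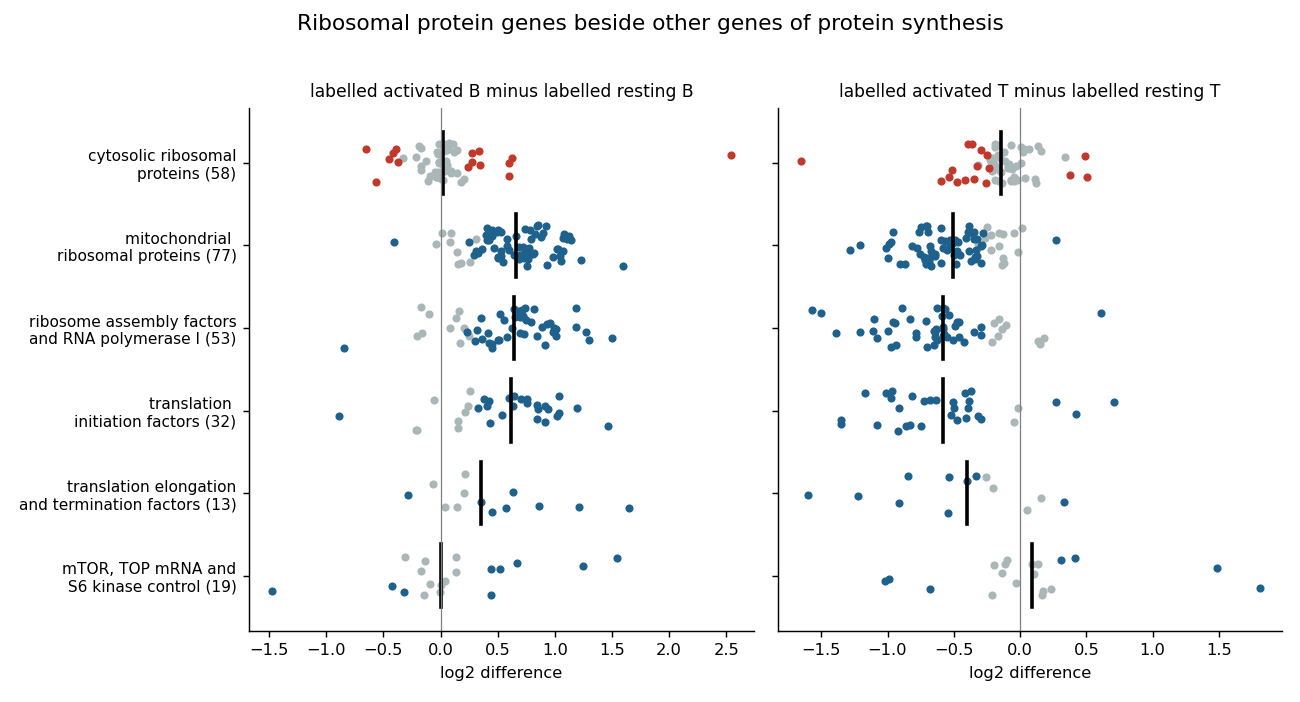
Log2 difference of each gene (points, coloured where the adjusted p is under 0.05 and grey otherwise) of the ribosomal proteins and of 5 lists of protein synthesis genes, between labelled activated and resting B arrays (left) and labelled activated and resting T arrays (right), with the number of genes in brackets and the median as a black bar. The median of the 58 cytosolic ribosomal proteins is 0.02 on the left and -0.15 on the right, against 0.66 and -0.51 for the 77 mitochondrial ribosomal proteins.

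Most ribosomal protein genes sit near the top of the signal range, where a probe set can saturate and show too small a difference. Among genes of 12 log2 and over, the group means of the 17 ribosomal protein genes differed by a median of 0.25 log2, against 0.37 for the 21 other genes at this signal. Between 11 and 12 log2 the medians were 0.25 for 15 ribosomal protein genes and 0.74 for 60 other genes, between 10 and 11 log2 0.45 for 8 and 0.77 for 255, and between 8 and 10 log2 0.36 for 7 and 0.76 for 3067. The ribosomal protein genes thus had a smaller median than other genes of the same signal in each of these bands, and the median of the other genes was smaller above 12 log2 than between 8 and 12. Differences were still measured at the top, as for Rps29 (mean 12.68 log2, group means 0.65 apart) and Rps2 (12.51, 0.35 apart).

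Probe sets of the same gene at different signals gave a mixed account. The brightest probe set of Rpl24 (11.16 log2) gave an interaction of 0.49, the next (10.94 log2) 0.85 and the dimmest (7.43 log2) 2.10, and those of Rpl27 (10.40, 9.51 and 7.58 log2) gave 0.88, 1.15 and 2.18. For Rps2 (12.51, 12.29 and 10.27 log2) they gave 0.56, 0.80 and 0.58, and for Rps29 (12.68, 11.94, 11.17 and 10.65 log2) -1.03, -1.19, -1.04 and -0.85. The difference thus grew as the signal fell for Rpl24 and Rpl27 and did not for Rps2 and Rps29. With all probe sets of each gene averaged, 22 genes had a positive interaction and 4 a negative one. Whether saturation or copies of the gene set these values was not tested.

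**Figure D5:**
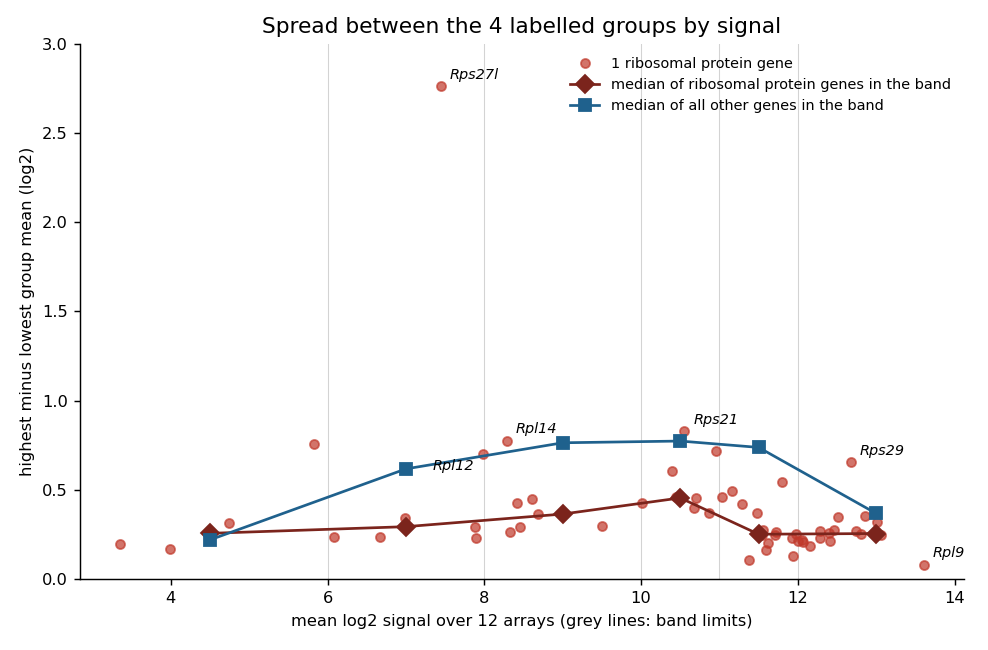
Distance between the highest and the lowest of the 4 group means (vertical axis, log2) against the mean signal over 12 arrays (horizontal axis, log2) for each of the 58 genes (red points), with the median of these genes and of all other genes in 6 bands of signal. The band medians of the ribosomal protein genes lie at 0.25 to 0.45 log2 from 8 log2 upwards, with single genes on both sides. Those of the other genes lie at 0.74 to 0.77 between 8 and 12 log2 and at 0.37 above, and Rps27l stands out at 2.76.

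Rpl9, Rpl5 and Rplp2 passed in no comparison of a pair of groups with the probe set used. Rpl9 lay at 13.63 ± 0.07, 13.56 ± 0.15, 13.64 ± 0.07 and 13.59 ± 0.09 log2 (SD, n = 3 each) in the labelled activated B, activated T, resting B and resting T arrays, with differences of -0.01 and -0.03 and a standard error of 0.10. Of its 8 probe sets, 1 of the others passed between the labelled resting groups (higher in B) and 1 in labelled activated T against resting B (lower in T). Rpl5, which with Rpl11 can bind Mdm2 outside the ribosome, had differences of -0.00 and 0.02 with a standard error of 0.15, and varied within groups, from 11.61 to 12.28 log2 in the labelled resting T arrays. None of its 4 probe sets passed in labelled activated against resting B or T. Of the others, 1 passed between the labelled resting groups (higher in B) and 1 in labelled activated T against resting B (lower in T). Between the labelled activated groups 1 passed (higher in B). Rplp2 lay at 6.67 ± 0.04 and 6.53 ± 0.08 log2 in the labelled activated B and activated T arrays, against 6.77 ± 0.13 and 6.73 ± 0.16 in the labelled resting B and resting T arrays (SD, n = 3 each). With the probe sets used, the paralogues other than Rps27l passed in no comparison apart from Rpl32l, which was 0.29 log2 higher in the labelled activated B than in the labelled activated T arrays. The dimmer of the 2 probe sets of Rps4l (5.54 log2) was called higher in labelled activated than resting B (0.39 log2). It also had a positive interaction (0.60).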

How the data were processed

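Total RNA of 12 samples (3 per labelled group, 1 array each) had been labelled and hybridised to Affymetrix whole-transcript arrays. The deposited values are log2 signals that the authors made with RMA (background correction, quantile normalization over probes and summarisation per probe set), with a version not given in the sources used here. Of 34760 probe sets 21640 had 1 gene symbol in the platform annotation, 1321 several and 11799 none, and the probe set with the highest mean was kept for each of 19937 genes. All 58 gene identifiers were found in RefSeq. Means of the 4 labelled groups were fitted on all 12 arrays with limma 3.58.1 (R 4.3.3, lmFit and eBayes), and p-values were adjusted by Benjamini-Hochberg over all genes, with a threshold of 0.05. The fit was tested on simulated data for labelled activated against resting B. Of 50 changed genes per size, it recovered 1 at 0.25 log2, 25 at 0.5, 48 at 1 and 50 at 2. Small differences can thus go uncalled, and a gene not called is not shown to be unchanged. Far fewer genes passed in the simulation (127) than in the data, so that recovery in the data may differ. No depth applies to arrays, whose number (3 per group) limits the precision.

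The members and the lists were chosen with earlier results of these data known, and lists were given no test. Genes were named by rule: per comparison the 5 largest differences in each direction among called genes whose groups were apart, the 5 highest and 5 lowest signals, the stalk proteins, the paralogues and genes with known roles, and for each list its leading genes. Further called genes were named after their values were seen. The labels number the B arrays 1 to 3 and the T arrays 4 to 6 in both states. After removal of the group means, arrays with the same number correlated at -0.06, 0.06 and 0.25 for B and at 0.22, 0.16 and 0.23 for T (12164 genes). By a limit of 0.1 in every pair the T numbers, but not the B numbers, were read as pairs. The main fit nevertheless held no pairs for either cell type, and its p-values are unpaired. Pairs entered only in the replicate block, which was an alternative. Alternatives were other scalings, probe set rules, filters, limma settings, the replicate block and each array left out. Under these, calls were counted for the ribosomal protein genes alone, so that no share over all genes stands beside those counts. Figures and promoter searches used Python 3.11.15.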

Additional observations from a re-analysis of the deposited data

Results flagged for a closer look

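The difference between labelled activated and resting arrays differed between the labelled cell types, by the test of the interaction itself (limma, adjusted over all genes), for 14 ribosomal protein genes in the positive and 5 in the negative direction of 58 (over all genes 21.9% were positive and 20.9% negative), and for 13 and 15 with quantile normalization. On the log2 scale it was 4.20 for Rps27l, 1.20 for Rpl14, 1.10 for Rpl41, 0.99 for Rpl7a and 0.88 for Rpl27. It was -1.06 for Rps21, -1.03 for Rps29, -0.93 for Rpl12, -0.79 for Rpl30 and -0.49 for Rps15. Markers of dividing cells were higher in labelled activated than resting B and lower in labelled activated than resting T (medians 4.12 and -4.05 log2). Labelled cell type and division therefore cannot be told apart in this test. The groups hold 3 arrays each, for which outlying samples were not sought.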

How the results depend on the processing

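Of 68 pairs of a named gene and a comparison, 36 lost the call under at least 1 alternative and 4 changed direction. The changes of direction came from the probe set used: with the dimmest one Rpl10 gave 0.54 log2 between labelled activated and resting T and -0.61 in the interaction, Rps6 -0.42 and Rpl28 0.44 between labelled resting B and T, and with the mean of all probe sets Rpl28 gave 0.0041 there. The cause was not tested.

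With array medians set equal, the counts higher and lower were 37 and 0 (median 0.35) between the labelled activated groups, 1 and 27 (-0.25) in labelled activated against resting T, 6 and 8 (-0.028) in labelled resting B against T, and 31 positive (0.38) in the interaction, and the median was 0.13 in labelled activated against resting B. This centring moves the median of all genes to 0.09, -0.09, -0.08, 0.10 and 0.18 in labelled activated against resting B, activated against resting T, resting B against T, activated B against T and the interaction. With quantile normalization they were 12 and 4 (0.10) between the labelled activated groups (75% of calls higher, against 91.7%), 10 lower (-0.082) in labelled activated against resting B (37.5% higher, against 60%), 5 higher (-0.055) in labelled activated against resting T, 6 lower in labelled activated T against resting B, and 15 negative (0.0022) in the interaction (46.4% positive, against 73.7%). Shares with median centring were 3.57% against 17.6% in the labelled T groups, 42.9% against 68.8% between the labelled resting groups and 88.6% against 73.7% in the interaction. Centring on the ribosomal protein genes without paralogues, added after seeing the data, brings their own median near 0 by construction. It gave 7 and 4 (-0.0028) between the labelled activated groups, 5 higher in labelled activated against resting B, 1 higher (-0.041) in labelled activated B against resting T, 0 lower (-0.011) in labelled activated T against resting B, 6 lower (-0.049) in labelled activated against resting T, 7 positive (0.063) in the interaction and 4 higher (-0.056) between the labelled resting groups.

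The mean of all probe sets gave 34 higher (0.29) between the labelled activated groups, 7 higher in labelled activated B against resting T, 16 lower in labelled activated T against resting B and 22 positive (0.25) in the interaction. The dimmest probe set gave 1 lower (0.29) between the labelled activated groups and 7 higher in labelled activated B against resting T. Intensity trend and robust settings gave 9 higher in labelled activated B against resting T, 20 lower in labelled activated T against resting B and 8 lower between the labelled resting groups, and array weights 18 lower in labelled activated T against resting B. Genes above background alone gave 5 higher in labelled activated B against resting T and 16 lower in labelled activated T against resting B. A fit on only the arrays compared gave 1 higher in labelled activated B against resting T, 9 lower in labelled activated against resting T and 3 lower between the labelled resting groups.

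With the replicate block the counts were 8 and 7 in labelled activated against resting B, 4 and 10 in labelled activated against resting T and 11 and 5 in the interaction, and the labelled B numbers, which share only a number, moved no count by over 1.5 times. The comparisons of B with T share no replicate numbers. Leaving out each array in turn gave 5 to 9 higher and 5 to 7 lower in labelled activated against resting B, 2 to 3 and 7 to 17 in labelled activated against resting T, 7 to 10 and 3 to 5 between the labelled resting groups, 14 to 24 and 1 to 2 between the labelled activated groups, 3 to 14 lower in labelled activated T against resting B, 1 to 4 higher in labelled activated B against resting T, and 10 to 18 positive and 4 to 6 negative in the interaction. The signal over background limits Rpl7a and the 3 paralogues below background.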
